A study of Mus musculus with 8 samples.

Results

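The genes described are the mouse globin genes of the embryonic and adult red cell, Hba-a1, Hba-a2, Hba-x, Hbb-bt, Hbb-bs, Hbb-y and Hbb-bh1, with Alas2, which encodes the red-cell enzyme that starts heme synthesis. They were chosen by symbol, and all 8 were present among the 16913 genes of the authors' table. RNA was sequenced from lateral ganglionic eminence (LGE), the embryonic zone that gives rise to striatal projection neurons, dissected at embryonic day 14.5 from mice of mixed C57BL/6J and CD1 background. The 4 Meis2-CKO samples carried the Dlx5/6-Cre driver and 2 floxed Meis2 alleles (Dlx5/6-Cre;Meis2F/F), and the 4 Ctrl samples, from littermates, carried the same driver and 1 floxed allele (Dlx5/6-Cre;Meis2F/+), so the controls are not wild type. Dlx5/6-Cre acts in Dlx-expressing cells of the ventral forebrain, and the labels do not say whether a sample is 1 embryo or a pool.

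Hemoglobin is a tetramer of alpha-like and beta-like chains, each holding a heme group. In the mouse, primitive red cells from the yolk sac use the embryonic chains encoded by Hba-x (zeta), Hbb-y (epsilon-y) and Hbb-bh1 (beta-h1) together with adult alpha chains, and definitive red cells from the fetal liver use the adult chains alone. Red cells are not made in the brain, and in dissected brain tissue that was not cleared of blood, globin RNA is a usual trace of red cells and reticulocytes in its vessels.

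None of the 8 genes differed between the genotypes at an adjusted p of 0.05 in the authors' deposited table, beside 0.78% of all 16913 genes (0.237% higher and 0.544% lower in Meis2-CKO). None had an unadjusted p under 0.05 there either, beside 2.17% of all genes. Globin signal was high and nearly equal: the authors' means of the 7 globin genes summed to 3055 in Meis2-CKO and 3033 in Ctrl, which is 0.562% of the summed signal of all genes in Meis2-CKO and 0.553% in Ctrl. The sum was thus 1.01-fold of that in Ctrl. Only genotype means were used, without spread between embryos. The values of single libraries fit no sample label and were left unused, and no standard error was at hand. No interval is therefore given for these differences, and a p that misses the threshold does not show that the genotypes are alike. In bulk tissue, a difference in the number of red cells and a difference in globin RNA per cell cannot be told apart.

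The unit of the means is not named in the file. When coding genes were split into 5 groups of rising exon length, the group medians of the Ctrl mean lay between 9.41 (shortest exons) and 14.2 (longest), so levels of different genes are set side by side here as values that look scaled by length. As a check of the targeted gene, the authors' mean of Meis2 was 140 in Meis2-CKO and 204 in Ctrl, for a log2 fold change of -0.53 (adjusted p of 0.00195 in the authors' deposited table). The median of all p-values in that table was 0.760.

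**Figure D1:**
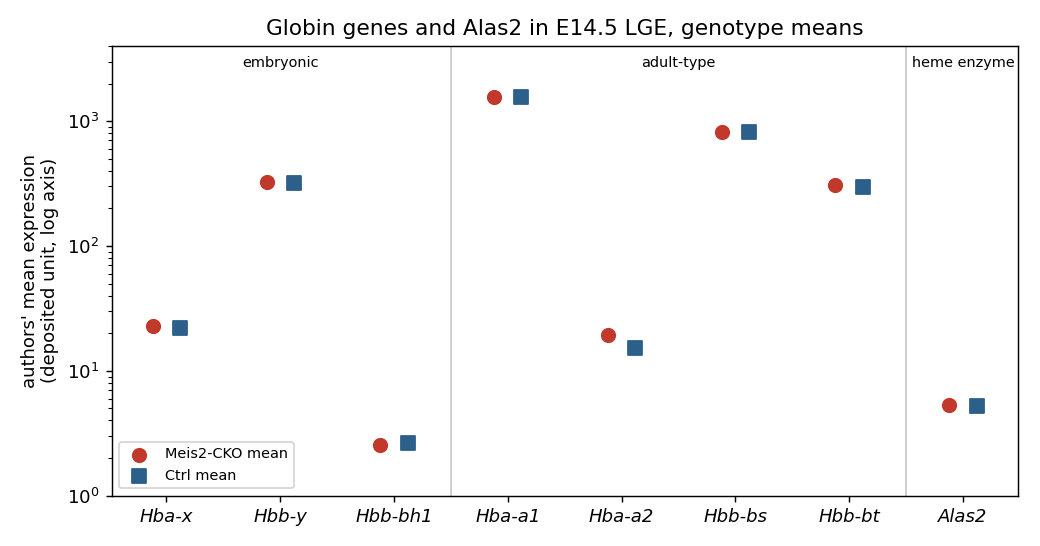
Authors' mean expression of each gene (deposited unit, log axis) in Meis2-CKO (circles, left) and Ctrl (squares, right), grouped as embryonic globins, adult-type globins and Alas2; there are no error bars because the means carry no spread. The genes span from about 2.5 for Hbb-bh1 to 1563 for Hba-a1, and the 2 symbols of each gene lie almost level except for Hba-a2.

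Among the adult chains, Hba-a1 (ENSMUSG00000069919, chromosome 11, 32283511 to 32284465, GRCm38, plus strand), an adult alpha-globin gene, had the highest signal, with an authors' mean of 1563 in Meis2-CKO and 1561 in Ctrl. It ranked 23 of all genes in Meis2-CKO and 24 in Ctrl by signal. Its log2 fold change was 0.02 in the authors' deposited table (p = 0.917). Hba-a2 (ENSMUSG00000069917, chromosome 11, 32296489 to 32297298), the second adult alpha-globin gene, had an authors' mean of 19.4 in Meis2-CKO and 15.2 in Ctrl. It showed the largest difference of the 8 genes, a log2 fold change of 0.37 in the authors' deposited table, with the smallest p of the 8 (0.133), and it did not pass. The Hba-a1 mean was 80.4-fold that of Hba-a2 in Meis2-CKO and 103-fold in Ctrl.

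The beta-like adult genes were closer to each other. Hbb-bs (ENSMUSG00000052305, chromosome 7, 103826534 to 103828096, minus strand), an adult beta-globin gene of the haplotype in the reference genome, had an authors' mean of 812 in Meis2-CKO and 815 in Ctrl. Its log2 fold change was 0.0084 in the authors' deposited table (p = 0.966), while the ratio of the authors' means was -0.0047 on the log2 scale. The sign of Hbb-bs thus depends on the scaling of the columns, which differ in total by 0.01 on the log2 scale, and the same mismatch of sign was found in 570 of 16609 genes above 0 in both genotypes, all with a log2 fold change of at most 0.02 in size. Hbb-bt (ENSMUSG00000073940, chromosome 7, 103812524 to 103813996), the other adult beta-globin gene of that haplotype, stood at an authors' mean of 309 in Meis2-CKO and 298 in Ctrl, with a log2 fold change of 0.07 in the authors' deposited table (p = 0.682). The Hbb-bs mean was 2.63-fold that of Hbb-bt in Meis2-CKO and 2.73-fold in Ctrl.

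Embryonic chains were present at very unequal levels. Hbb-y (ENSMUSG00000052187, chromosome 7, 103851749 to 103853216), the embryonic epsilon-y chain, had an authors' mean of 326 in Meis2-CKO and 319 in Ctrl, on a level with Hbb-bt, and a log2 fold change of 0.04 in the authors' deposited table (p = 0.856). Hba-x (ENSMUSG00000055609, chromosome 11, 32276400 to 32278116), the embryonic zeta chain, stood at an authors' mean of 22.8 in Meis2-CKO and 21.95 in Ctrl, with a log2 fold change of 0.06 in the authors' deposited table (p = 0.766). Hbb-bh1 (ENSMUSG00000052217, chromosome 7, 103841637 to 103843164), which as background is silenced earlier than Hbb-y as primitive cells mature, was at an authors' mean of 2.54 in Meis2-CKO and 2.67 in Ctrl. It was the lowest of the 8 genes and the only one with a log2 fold change below 0 in the authors' deposited table (-0.06, p = 0.925). The Hbb-y mean was 128-fold that of Hbb-bh1 in Meis2-CKO and 120-fold in Ctrl.

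Alas2 (ENSMUSG00000025270, chromosome X, 150547375 to 150570638), the erythroid form of 5-aminolevulinate synthase, had an authors' mean of 5.34 in Meis2-CKO and 5.22 in Ctrl, with a log2 fold change of 0.04 in the authors' deposited table (p = 0.920). Alas2 is X-linked, and the X-inactivation transcript Xist stood at authors' means of 256 in Meis2-CKO and 78.0 in Ctrl, while the Y-linked Eif2s3y stood at 14.02 in Meis2-CKO and 50.5 in Ctrl. In the authors' deposited table Eif2s3y had a log2 fold change of -1.83 (adjusted p of 1.0e-16). The Y-linked Ddx3y (-1.77, adjusted p of 0.00028) and Kdm5d (-1.63, adjusted p of 0.0020) passed too. Uty, also Y-linked (-1.42, adjusted p of 0.387), and Xist (1.74, adjusted p of 0.985) did not pass there. The labels give no sex, and the part of the embryos' sex in the values was not tested, for Alas2 or for any other gene described here. Alas1, the form of the enzyme used in other tissues, named after its value was seen, had an authors' mean of 24.8 in Meis2-CKO and 25.4 in Ctrl, above that of Alas2 in both genotypes.

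From high to low, the order in Ctrl was Hba-a1, Hbb-bs, Hbb-y, Hbb-bt, Hba-x, Hba-a2, Alas2 and Hbb-bh1, and it was the same in Meis2-CKO. The neighbours Hbb-y and Hbb-bt, and Hba-x and Hba-a2, lay close together, and without a spread between embryos neither order can be tested. Of the 8 genes, 7 had a log2 fold change above 0 in the authors' deposited table, where 53.3% of all genes did. The median of the 8 was 0.04 against 0.01 for all genes, and the median size regardless of sign was 0.05 against 0.11. Genes with an average authors' mean of at least 100, of which there were 826, had a median size of 0.05 too.

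The balance between chains was also close in the 2 genotypes. Alpha-like means summed to 1605 in Meis2-CKO and 1598 in Ctrl, and beta-like means to 1449.5 in Meis2-CKO and 1434.3 in Ctrl. The ratio of alpha-like to beta-like signal was 1.11 in both genotypes (0.994-fold in Meis2-CKO relative to Ctrl). Embryonic chains made up 22.6% of the beta-like signal in Meis2-CKO and 22.4% in Ctrl, a difference of 0.243 percentage points. Of the alpha-like signal, Hba-x made up 1.42% in Meis2-CKO and 1.37% in Ctrl. These shares have no test, since each is a ratio of genotype means.

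**Figure D2:**
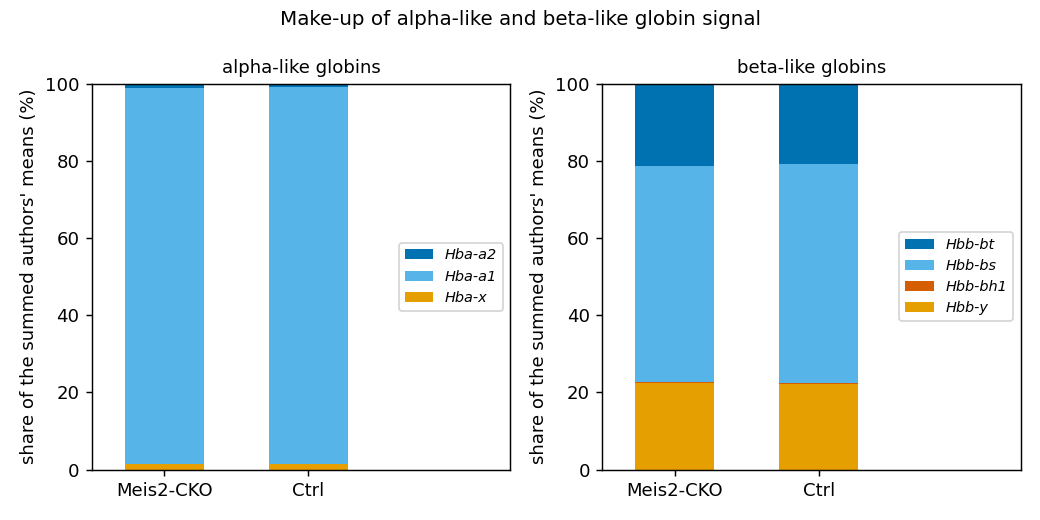
Share of each gene (percent) in the summed authors' means of the alpha-like globins (left panel) and of the beta-like globins (right panel), with Meis2-CKO to the left of Ctrl. Hba-a1 fills 97.4% of the alpha-like bar in Meis2-CKO and 97.7% in Ctrl; the beta-like bars divide among Hbb-bs (56.04% in Meis2-CKO, 56.8% in Ctrl), Hbb-bt (21.3% in Meis2-CKO, 20.8% in Ctrl) and Hbb-y (22.5% in Meis2-CKO, 22.2% in Ctrl), and Hbb-bh1 is barely visible.

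In both clusters the embryonic gene lies at the head and the adult genes downstream. Hba-a1 starts 7.11 kb and Hba-a2 20.1 kb downstream of the start of Hba-x, and Hbb-bh1, Hbb-bs and Hbb-bt start 10.1, 25.1 and 39.2 kb downstream of that of Hbb-y. The level did not follow this order in a simple way: in the alpha-globin cluster the table gives nearly all the signal to the middle gene, a split that the likeness of the copies makes uncertain, and in the beta-globin cluster the second gene, Hbb-bh1, was the lowest.

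**Figure D3:**
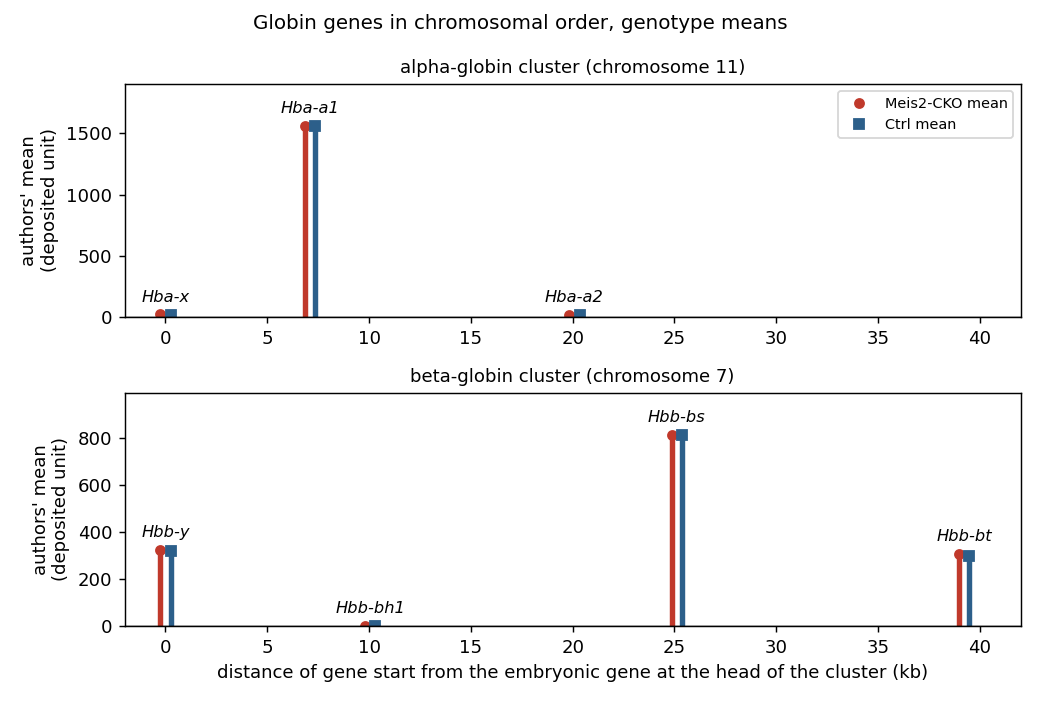
Authors' mean expression (vertical axis, deposited unit) against the distance in kb of each gene's start from that of the embryonic gene at the head of its cluster, for the alpha-globin genes on chromosome 11 (top) and the beta-globin genes on chromosome 7 (bottom); Meis2-CKO stems are left of Ctrl stems and are offset for visibility. Hba-a1, at 7.11 kb, towers over its neighbours, while the beta-globin cluster has 3 genes with means near 300 or above and Hbb-bh1 near 2.5.

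The unequal values of the copies have to be read with their sequences. Over a coding length of 426 bases without the stop codon, the annotated transcripts of Hba-a1 and Hba-a2 differed at 1 base (99.8% identity), and over 441 bases those of Hbb-bs and Hbb-bt also differed at 1 base (99.8%). The stretches around these bases are shown because they are the only coding positions at which a read can be told to come from one copy or the other; positions are counted from 1 at the first base of the start codon, the differing base is in capitals, and all 4 lie in exon 3. The alpha pair differed by C381T (Hba-a1 base first) and the beta pair by C417T (Hbb-bs base first), in the GENCODE M21 transcripts on GRCm38.
Hba-a1, chr11:32284328-32284357, plus strand: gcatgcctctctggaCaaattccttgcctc
Hba-a2, chr11:32297145-32297174, plus strand: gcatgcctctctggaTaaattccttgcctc
Hbb-bs, chr7:103826678-103826707, minus strand: ggtggctggagtggcCgctgccctggctca
Hbb-bt, chr7:103812669-103812698, minus strand: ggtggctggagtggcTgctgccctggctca
Outside the coding part the beta copies differ more. The alpha transcripts differ in annotated length, with 699 bases for Hba-a1 and 554 for Hba-a2. Of all windows of 50 bases in the Hba-a2 transcript, 86.9% were also found in that of Hba-a1, and 67.5% of those of Hba-a1 were found in Hba-a2. At 150 bases the shares were 65.7% and 48.4%, and the longest stretch in common was 415 bases. The number of shared windows of 50 bases was 439 in both directions, so the lower share of Hba-a1 goes with its longer transcript. The annotated start of Hba-a1 lies within its RefSeq promoter, 250 bases before to 50 after the RefSeq start. That promoter was identical to that of Hba-a2 over 297 aligned bases. The lower share of Hba-a1 is therefore no measure of sequence difference between the copies. For Hbb-bs 65.8% of the windows of 50 bases were found in Hbb-bt and for Hbb-bt 58.3% in Hbb-bs, with a longest common stretch of 430 bases. The read length and the handling of reads that fit both copies are not given in the sources used here, so the split between Hba-a1 and Hba-a2, the difference of Hba-a2 between genotypes, and the split between Hbb-bs and Hbb-bt are uncertain, whereas the sums of each pair are less exposed to it. The embryonic genes were distinct: Hbb-y and Hbb-bh1 shared 76.4% of coding bases and no window of 50, and Hba-x shared 61.7% with Hba-a1 and no window of 50. Embryos of mixed C57BL/6J and CD1 background may carry other alleles at these loci than the reference, which was not tested.

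**Figure D4:**
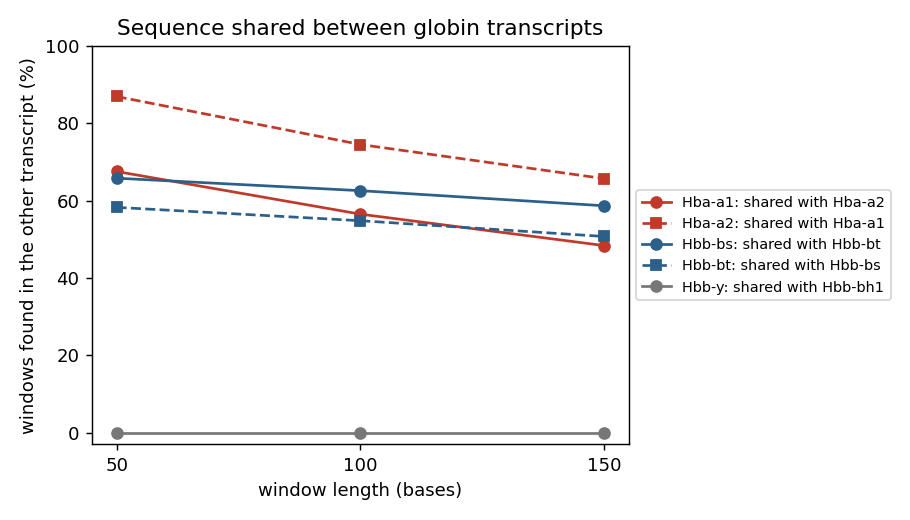
Share of the windows of a transcript (vertical axis, percent) that occur unchanged in the other transcript, at window lengths of 50, 100 and 150 bases, with a solid and a dashed line for the 2 directions of each adult pair. The adult alpha pair (red) runs from 86.9% down to 65.7% for Hba-a2 and the adult beta pair (blue) from 65.8% down to 58.7% for Hbb-bs, while the embryonic Hbb-y and Hbb-bh1 (grey) stay at 0%.

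The bases before the gene starts were compared as well, because the alpha copies with such unequal values have the same promoter. RefSeq promoters of GRCm38.p6, 250 bases before to 50 after the start, were at hand for 7 of the 8 genes. Those of Hba-a1 and Hba-a2 were identical over 297 aligned bases, with 0 differences. Those of Hbb-bt and Hbb-bs were 56.2% identical when set side by side without gaps, a value that counts the bases beyond any insertion or deletion as differences and so is a lower estimate. Shown are stretches within 150 bases of the start that lie outside annotated exons and, for Hba-a1 and Hba-x, 30 bases at the TATA box; capitals mark matches on either strand to the 4 short motifs spelled out after the sequences.
Hba-a1, chr11:32283633-32283662, plus strand: ccttggagggcaTATAAgtgctacttgctg
Hba-a2, chr11:32296342-32296488, plus strand: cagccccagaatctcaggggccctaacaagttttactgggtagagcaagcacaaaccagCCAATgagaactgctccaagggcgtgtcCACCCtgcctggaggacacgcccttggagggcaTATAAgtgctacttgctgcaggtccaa
Hba-x, chr11:32276560-32276589, plus strand: tgaccatgtgtaTATAAaggagacactggg
Hbb-bt, chr7:103813997-103814073, minus strand: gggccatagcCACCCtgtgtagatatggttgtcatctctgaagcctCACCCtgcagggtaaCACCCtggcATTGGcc
Hbb-bs, chr7:103827929-103828011, minus strand: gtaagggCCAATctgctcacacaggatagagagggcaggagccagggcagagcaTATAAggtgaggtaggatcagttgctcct
Hbb-y, chr7:103853217-103853357, minus strand: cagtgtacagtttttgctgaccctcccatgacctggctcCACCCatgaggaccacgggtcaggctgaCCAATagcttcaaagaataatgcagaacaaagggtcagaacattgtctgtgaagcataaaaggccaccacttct
Alas2, chrX:150547267-150547374, plus strand: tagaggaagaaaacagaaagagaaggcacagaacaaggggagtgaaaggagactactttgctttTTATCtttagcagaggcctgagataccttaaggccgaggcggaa
The motifs are classic elements of globin promoters and were chosen with the sequences in view. The TATA box was searched with the letters TATAA. The box bound by KLF1, a red-cell activator, was searched with the letters CACCC. For the site of GATA1, the leading red-cell factor, the letters were GATAA. The fourth motif was the CCAAT box, by its own letters. Within the 250 bases before the start and on both strands, the KLF1 and GATA1 letters were each found in 7 of 7 promoters, the TATA box in 6 and the CCAAT box in 5. Among 32851 mouse promoters searched in the same way, the KLF1 letters were found in 52.0%, the GATA1 letters in 22.6%, the TATA box in 22.8% and the CCAAT box in 33.8%. A TATA box on the gene's own strand, 27 to 30 bases before the start, was found in 5 of 6 globin promoters, the exception being Hbb-y, and 4.23% of all promoters held one between 50 and 16 bases before the start. Hba-a1 and Hba-a2, identical over 297 aligned bases, count as 2 promoters in all these tallies, so the tallies are not of independent sequences. The matches of Alas2 to the TATA box overlap each other on the 2 strands. A match of these letters is a description and not a measured binding site.

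Other genes of the red cell gave no call. In 5 lists of heme synthesis, erythroid transcription factors, membrane, enzymes and iron handling, 49 of 69 genes were analysed here. Of the 49, 0 passed the threshold in either direction in the authors' deposited table, beside 0.78% of all 16913 genes. An unadjusted p under 0.05 was found there for 1, beside 2.17% of all genes. Both counts lie near the shares of all genes. Many of the listed genes are used by other tissues too, so their levels are no measure of red cells.

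Heme synthesis genes, 12 of 12 analysed, had a median log2 fold change of 0.01 in the authors' deposited table, with 6 above and 6 below 0. The 3 with the highest signal were Alad, the enzyme after 5-aminolevulinate synthase, at authors' means of 41.4 in Meis2-CKO and 40.3 in Ctrl, the mitochondrial carrier gene Tmem14c at 39.1 in Meis2-CKO and 38.8 in Ctrl, and Urod, a decarboxylase of the pathway, at 31.8 in Meis2-CKO and 32.1 in Ctrl. Fech, which inserts iron into the ring, stood at 6.52 in Meis2-CKO and 6.47 in Ctrl, and was named after its value was seen. The log2 fold changes of the 12 ran from -0.22 to 0.08 in the authors' deposited table.

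Of 13 erythroid transcription factors 9 were analysed, with a median log2 fold change of 0.04 in the authors' deposited table. Gata1, Klf1, Nfe2 and Gfi1b were not among the 9. Ldb1, which bridges enhancers and promoters in red cells and in neurons, stood at authors' means of 191 in both genotypes. Bcl11a, a silencer of embryonic and fetal globin genes that is also a neuronal factor, had authors' means of 50.6 in Meis2-CKO and 67.4 in Ctrl and the only unadjusted p under 0.05 of the list (0.0030, adjusted p = 0.303, in the authors' deposited table). Sox6, its partner in silencing Hbb-y and likewise a neural gene, stood at 21.4 in Meis2-CKO and 19.2 in Ctrl. Of the factors best known from blood, named after their values were seen, Tal1 stood at 0.713 in Meis2-CKO and 0.718 in Ctrl, Myb at 6.35 in Meis2-CKO and 6.22 in Ctrl, and Lmo2 at 7.18 in Meis2-CKO and 10.25 in Ctrl. Lmo2, which endothelial cells also use, had the largest log2 fold change of the list in size (-0.49 in the authors' deposited table, p = 0.150) and did not pass.

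Membrane and cytoskeleton genes, 9 of 19 analysed, had a median log2 fold change of -0.02 in the authors' deposited table, with the highest signal in Add2 (69.1 in Meis2-CKO, 78.9 in Ctrl), Epb41 (56.9 in Meis2-CKO, 58.2 in Ctrl) and Slc2a1 (21.9 in Meis2-CKO, 20.9 in Ctrl), all of which brain or vessel cells also express. Slc4a1, the band 3 anion exchanger of the red-cell surface, chosen after its value was seen, had authors' means of 0.893 in Meis2-CKO and 0.690 in Ctrl. Globin means thus reached 1563 while this red-cell surface gene stayed below 1, and the stage of the cells it came from was not tested. Enzymes and chaperones, 8 of 13 analysed, had a median of 0.05, with Prdx2, an abundant red-cell peroxidase also made in neurons, at authors' means of 520 in Meis2-CKO and 540 in Ctrl, Bpgm at 32.8 in Meis2-CKO and 32.9 in Ctrl, and Cat at 28.7 in Meis2-CKO and 27.2 in Ctrl. Iron genes, 11 of 12 analysed, had a median of 0.02, with the ferritin genes Ftl1 (1215 in Meis2-CKO, 1316 in Ctrl) and Fth1 (303 in Meis2-CKO, 300.4 in Ctrl) and the iron sensor Ireb2 (51.4 in Meis2-CKO, 52.0 in Ctrl) highest.

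Markers of blood vessels were close too. The 10 endothelial genes summed to 60.4 in Meis2-CKO and 60.9 in Ctrl, with 0 calls and a median log2 fold change of -0.02 in the authors' deposited table; Cldn5, a tight-junction gene of brain vessels, had an authors' mean of 21.7 in both genotypes and Esam of 6.93 in Meis2-CKO and 7.39 in Ctrl. The 6 pericyte genes summed to 42.5 in Meis2-CKO and 39.7 in Ctrl, with a median of 0.09, no calls, and Notch3 at 18.8 in Meis2-CKO and 16.9 in Ctrl and Rgs5 at 12.7 in Meis2-CKO and 12 in Ctrl. The lack of calls in the endothelial and pericyte lists lies near the share of all genes called, 0.78% of 16913. The 16 LGE markers lay both ways, with 8 above and 8 below 0 and a median log2 fold change of 0.06 in the authors' deposited table. Of these, 5 fell and 0 rose at an adjusted p of 0.05, beside 0.544% of all 16913 genes lower and 0.237% higher. The 5 were Meis2, Isl1, Ebf1, Foxp1 and Bcl11b. An unadjusted p under 0.05 was found for 12 of the 16, beside 2.17% of all genes. Among the markers with higher means in Meis2-CKO that did not pass, named after their values were seen, Dlx1 had a log2 fold change of 0.35, Dlx2 of 0.34, Dlx5 of 0.36, Sp8 of 0.64 and Sp9 of 0.39 in the authors' deposited table. The markers with lower means that did not pass, also named after their values were seen, were Six3 (-0.59), Gad2 (-0.25) and Gad1 (-0.02). The log2 fold changes of the 5 that fell ran from -2.46 to -0.53 in the authors' deposited table, the latter for Meis2, the targeted gene. The list was chosen with earlier results of these data known, so it is no check on the globin values. No LGE marker was listed at 0 in either genotype.

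**Figure D5:**
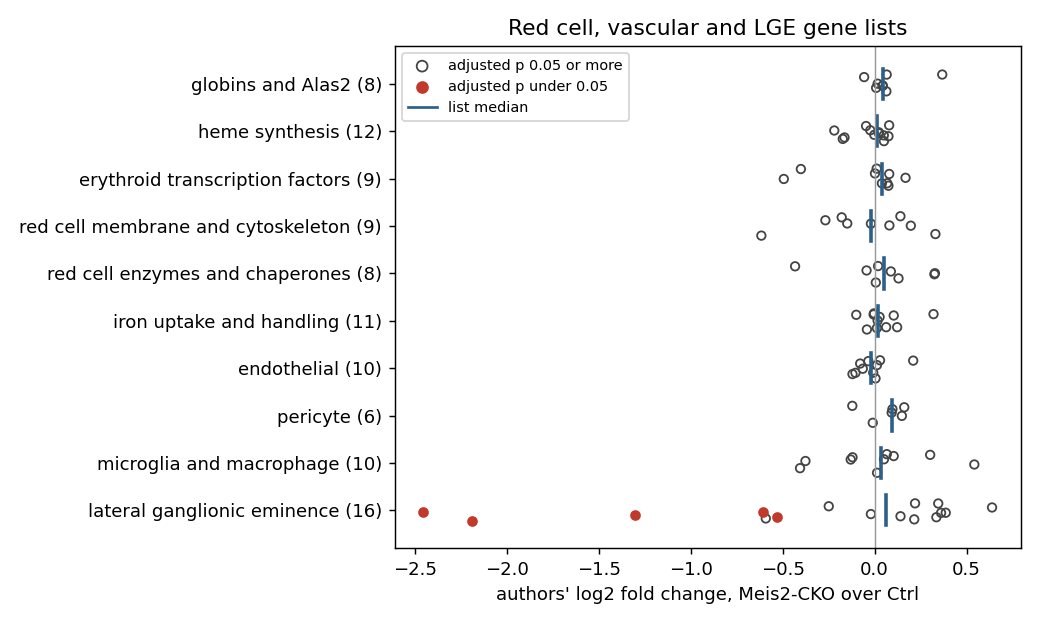
Authors' log2 fold change of Meis2-CKO over Ctrl for each analysed gene (points) of each list, number of genes in brackets, with the list median as a blue bar and scatter in height for visibility only; filled red points passed an adjusted p of 0.05. The globins and Alas2 lie within 0.07 of 0 except Hba-a2 at 0.37, and the red points are the 5 LGE genes that fell.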

How the data were processed

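RNA-seq of 4 Meis2-CKO and 4 Ctrl LGE samples was deposited as 1 table. Per the file headers, its signal is a mean over the replicates of a genotype, made by the authors in a unit the header does not name. The log2 fold change and the raw and adjusted p-value were deposited too, and all calls rest on them. The submitters' processing notes list, with no role, HISAT2 2.1.0, StringTie 1.3.1 and FastQC 0.11.5, and as builds GRCm38.p2 and mm10; which test gave the p-values is not stated there. Recomputing a Benjamini-Hochberg adjustment gave the deposited adjusted p over all 16913 genes. A further 8 columns hold values of single libraries under names that fit no sample label; they were not used, and the planned limma fits on libraries were not run. Depth is unknown, and the samples may or may not be separate embryos.

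Members and gene lists were chosen with earlier results of these data known. Named genes were the 8 members, the called members of each list and otherwise the 3 with the highest mean (2 for lists of other cell types); others are said to be named after their values were seen. No genes of like pattern were sought, since 2 means give none. Gene places, exon lengths and transcripts came from GENCODE M21 (GRCm38), matched by Ensembl ID for 16861 genes. Promoters came from RefSeq. Alternatives were pseudocounts of 1 and 0.1, centring, rescaling, the Benjamini-Yekutieli adjustment, a mean of at least 1, genes of 300 nt or more, and leaving out the near-identical copies. The adjustments were tested on simulated data. Scripts ran in Python 3.11.15 with pandas 2.3.3, numpy 2.4.6, matplotlib 3.10.9 and scipy 1.17.1. Results for some genes are not reported here.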

Additional observations from a re-analysis of the deposited data

How the results depend on the processing

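No member and no gene of the 5 erythroid lists was called under any alternative run on those counts (Benjamini-Yekutieli, a mean of at least 1 and genes of 300 nt or more for the members, a mean of at least 1 for the lists). These counts could not have come out otherwise. The smallest unadjusted p of the members was 0.133 in the authors' deposited table, and an adjustment cannot lower it. For the lists, genes were only left out and the deposited adjusted p was kept. The counts are therefore no check of the calls. Of 32 member values under 4 other scales, 29 kept their direction. The 3 that did not were all of Hbb-bs, whose deposited log2 value of 0.0084 became -0.0033 after centring, and -0.0047 as a ratio of the authors' means with a pseudocount of 1 or of 0.1; that ratio was -0.0047 without a pseudocount too. The median of the 8 genes lay between 0.03 and 0.04 under all 4 scales. With the columns rescaled to the same total, the globin sum in Meis2-CKO was 1.02-fold of that in Ctrl. The ratio of alpha-like to beta-like signal, 0.994-fold in Meis2-CKO relative to Ctrl, turned to 1.03-fold without Hba-a1 and Hba-a2, where Hba-x alone is left, and was 0.983-fold without Hbb-bt and Hbb-bs. Of 10 list medians under alternatives, 1 turned sign: that of heme synthesis, 0.01 from the deposited fold changes, was -0.0023 as a ratio of means with a pseudocount of 1, a setting that changes both the source of the ratio and the pseudocount. With a mean of at least 1, the median of the membrane list was -0.15 in place of -0.02 and that of enzymes and chaperones 0.02 in place of 0.05; as ratios of means with a pseudocount of 1, the medians were 0.0039 in place of 0.02 for iron genes, 0.02 in place of 0.04 for the transcription factors, 0.03 in place of 0.05 for enzymes and chaperones and -0.03 in place of -0.02 for the membrane list. No paired analysis was possible because the value columns per library carry no sample label, and for the same reason no replicate was left out. The unknown depth and the lack of a spread in the values used limit every difference given.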

Other observations

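Of 10 further globin genes 3 were analysed here, all with authors' means below those of the adult globins described. Cygb, cytoglobin, of fibroblast-like cells and some neurons, had authors' means of 2.46 in Meis2-CKO and 2.72 in Ctrl, Ngb, the neuronal neuroglobin, 0.265 in Meis2-CKO and 0.393 in Ctrl, and Hbq1a, theta globin of the alpha-globin cluster, 0.350 in Meis2-CKO and 0.170 in Ctrl. None passed in the authors' deposited table, with unadjusted p-values of 0.61 or more.

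Platelet and megakaryocyte genes, 4 of 8 analysed, summed to 8.20 in Meis2-CKO and 10.3 in Ctrl, with Gp1bb at authors' means of 5.64 in Meis2-CKO and 7.59 in Ctrl and Itga2b at 1.17 in Meis2-CKO and 1.18 in Ctrl. Of 8 neutrophil genes 1 was analysed, S100a9, at 0.205 in Meis2-CKO and 0.035 in Ctrl. Microglia and macrophage genes, 10 of 10 analysed, summed to 57.1 in Meis2-CKO and 56.9 in Ctrl, with Tyrobp at 10.8 in Meis2-CKO and 11.9 in Ctrl and C1qb at 11.2 in Meis2-CKO and 10.8 in Ctrl. Meningeal fibroblast genes, 6 of 6 analysed, summed to 3.61 in Meis2-CKO and 6.19 in Ctrl, with Col3a1 at 1.42 in Meis2-CKO and 2.18 in Ctrl and Col1a2 at 0.803 in Meis2-CKO and 1.82 in Ctrl. No gene of these 4 lists passed in the authors' deposited table, beside 0.78% of all 16913 genes. The meningeal list had a median log2 fold change of -0.79 in the authors' deposited table, beside a globin sum that was 1.01-fold of that in Ctrl; the part of meningeal tissue in the globin values was not tested.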
